A study of Mus musculus with 24 samples.

Results

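The clock output transcription factors described here are the products of 7 genes that the circadian clock controls: the bZIP genes Dbp, Tef, Hlf and Nfil3, the bHLH genes Bhlhe40 and Bhlhe41, and Ciart, which encodes a repressor that binds the clock activator. The genes were found by matching GENCODE mouse symbols to the Ensembl identifiers of both deposited tables, which gave 7 of 48795 identifiers. All 7 passed the filter on low values in both tables. The RNA came from epithelial and mesenchymal cells that had been sorted from digested lungs of Balb/c females aged 8 weeks. Each table holds 4 libraries of mice irradiated on the lungs with 13 Gy and injected daily with an antibody to the neutrophil surface protein Ly6G. A further 4 came from mice irradiated in the same way and given a control IgG, and 4 from sham-irradiated mice given the control IgG. Lungs were collected at day 7, and the labels do not give the time of day. The 3 groups are called irradiated anti-Ly6G, irradiated and sham below, and no mouse carried an engineered allele according to the labels. The cells were freshly sorted primary cells, so the epithelial fraction pools airway and alveolar cells and the mesenchymal fraction is what lacked EpCAM and the other sorting markers.

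The circadian clock of a mammalian cell is a feedback loop in which CLOCK, or its relative NPAS2, pairs with ARNTL (BMAL1) and switches on genes that carry an E-box, CACGTG. Among these genes are the repressors Per and Cry, the nuclear receptors Nr1d1 and Nr1d2, which repress Arntl through ROR elements, and the output factors. DBP, TEF and HLF are activators of the PAR bZIP family that bind a D-box, NFIL3 represses through the same element, and BHLHE40, BHLHE41 and CIART act against CLOCK and ARNTL at E-boxes. In mouse lung the clock of airway epithelium is known to influence the recruitment of neutrophils, and Dbp and Arntl reach their peaks at opposite phases of the cycle.

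In the annotation of build GRCm38, Dbp (ENSMUSG00000059824) lies on chromosome 7 from 45705088 to 45710203 on the plus strand, Tef (ENSMUSG00000022389) on chromosome 15 from 81802421 to 81826863 on the plus strand, and Hlf (ENSMUSG00000003949) on chromosome 11 from 90336536 to 90390895 on the minus strand. Nfil3 (ENSMUSG00000056749) lies on chromosome 13 from 52967209 to 52981073 on the minus strand. Ciart (ENSMUSG00000038550) lies on chromosome 3 from 95878503 to 95882251 on the minus strand. Bhlhe40 (ENSMUSG00000030103, plus strand, 108660629 to 108666925) and Bhlhe41 (ENSMUSG00000030256, minus strand, 145858243 to 145865558) both lie on chromosome 6. All 7 are annotated as protein-coding, and each value counts the reads of the whole gene.

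The promoter windows show which genes of the set carry the letters that the clock factors read. Among 6 of the 7 genes with a RefSeq promoter entry (GRCm38.p6, from the C57BL/6J strain and not from Balb/c), the 250 bases before each start were searched on both strands. The motifs were the E-boxes CACGTG and CACGTT, the D-boxes TTATGTAA, TTACGTAA and TTATGCAA, and the ROR elements TAGGTCA and TGGGTCA, and no 2 matches overlapped. The stretches printed for Ciart, Bhlhe41 and Tef lie outside the annotated exons, and that of Nfil3 is a short stretch around its match, all 5′ to 3′ on the strand of the gene with the matches in capitals.

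Ciart, chr3:95882252-95882478, minus strand: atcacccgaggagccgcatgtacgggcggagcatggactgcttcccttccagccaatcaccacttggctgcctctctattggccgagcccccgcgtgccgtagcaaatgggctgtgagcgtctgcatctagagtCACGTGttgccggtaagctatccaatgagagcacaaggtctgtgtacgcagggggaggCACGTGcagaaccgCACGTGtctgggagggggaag
Bhlhe41, chr6:145865559-145865670, minus strand: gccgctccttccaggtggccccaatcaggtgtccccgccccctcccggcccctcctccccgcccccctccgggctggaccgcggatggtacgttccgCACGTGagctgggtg
Tef, second start, chr15:81811164-81811413, plus strand: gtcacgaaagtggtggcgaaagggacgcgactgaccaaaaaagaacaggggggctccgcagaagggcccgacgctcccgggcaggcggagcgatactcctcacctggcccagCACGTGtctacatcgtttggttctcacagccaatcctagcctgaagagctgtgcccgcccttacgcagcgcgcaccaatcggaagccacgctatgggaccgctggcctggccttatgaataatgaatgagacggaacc
Nfil3, chr13:52981040-52981062, minus strand: gcgctcggaacTGACCTActaac

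Ciart held CACGTG at 116, 58 and 44 bases before its RefSeq start. Of all 32851 RefSeq promoter windows of that length, 6.02% held CACGTG at least once and 20, or 0.0609%, held it at 3 or more places. Bhlhe41 held it at 153 bases before its start, and Tef held it in the windows of both of its RefSeq starts, at 127 and 138 bases. The Tef match at 127 bases lies inside a GENCODE exon, and its window is not printed. The Nfil3 stretch shows the ROR element TAGGTCA, read on the opposite strand, at 12 bases before the RefSeq start and inside a GENCODE exon, and 2.23% of all windows held that element. The Dbp and Hlf windows held none of the motifs, which says only that these letters are not within that distance. Bhlhe40 had no entry in the table. A match describes the letters and no binding was measured.

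The libraries held 8159062 to 13373329 reads in the epithelial table and 7366672 to 11408083 in the mesenchymal table, and a gene at 0 in a library could still have had up to 3.81 normalised counts in the epithelial table and 3.66 in the mesenchymal table, by counting error only. The 7 epithelial markers summed to 338800 to 382986 normalised counts in irradiated anti-Ly6G epithelial libraries, 368581 to 424884 in irradiated and 391311 to 429072 in sham, and all were detected. The 7 mesenchymal markers summed to 156820 to 221324, 127605 to 214176 and 145278 to 191984 in the mesenchymal table. Cells outside the gate left RNA too: the 10 leukocyte markers summed to 2308 to 3192 in irradiated anti-Ly6G, 3030 to 3908 in irradiated and 2871 to 3195 in sham epithelial libraries, with 858 to 1869, 1112 to 2448 and 383 to 1077 in mesenchymal ones. The actin-bundling gene Lcp1 made up most of the epithelial sum, at means of 2375, 2827 and 2808, and the other 9 markers summed to 391 to 581 in irradiated anti-Ly6G, 372 to 970 in irradiated and 92.6 to 330.0 in sham epithelial libraries. The 7 mesenchymal markers summed to 8508 to 10169, 7243 to 7926 and 6039 to 6652 in these epithelial groups, without overlap. The 7 endothelial markers summed to 1180 to 1788, 1270 to 2252 and 729 to 1074 in the epithelial table and to 1501 to 2800, 2218 to 3620 and 965 to 2298 in the mesenchymal table. Neutrophil markers summed to 125 to 401, 122 to 448 and 12.5 to 50.9, and to 197 to 538, 327 to 691 and 77.3 to 267; Ly6g itself was at 0 in all 4 sham epithelial libraries. In bulk RNA, fewer cells of a type and less RNA per cell cannot be told apart.

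Levels per kilobase of exon spread widely over the set, and each table has its own scale, so the order was read within a table. Over the 12 epithelial libraries Bhlhe40 was the highest, with a mean of 369 normalised counts per kilobase and a range of 286 to 495. Nfil3 averaged 253, Tef 204 and Dbp 135 per kilobase, while Ciart averaged 19.0, Bhlhe41 7.35 and Hlf 4.25. In the mesenchymal table Nfil3 led with 404 per kilobase, ahead of Bhlhe40 with 291, Tef with 127, Hlf with 77.3, Dbp with 51.5, Bhlhe41 with 14.5 and Ciart with 8.44. The ranges of neighbours overlapped over the 12 libraries in both orders, except those of mesenchymal Bhlhe40 (216 to 373) and Tef (63.5 to 186). The place of Hlf differed between the tables: it stood last of 7 in the epithelial table, with a range of 2.06 to 6.96 per kilobase, and between Tef and Dbp in the mesenchymal table, with 43.6 to 101. Dbp varied most in both tables, with its highest library 9.12 times its lowest among epithelial and 7.85 times among mesenchymal libraries.

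**Figure D1:**
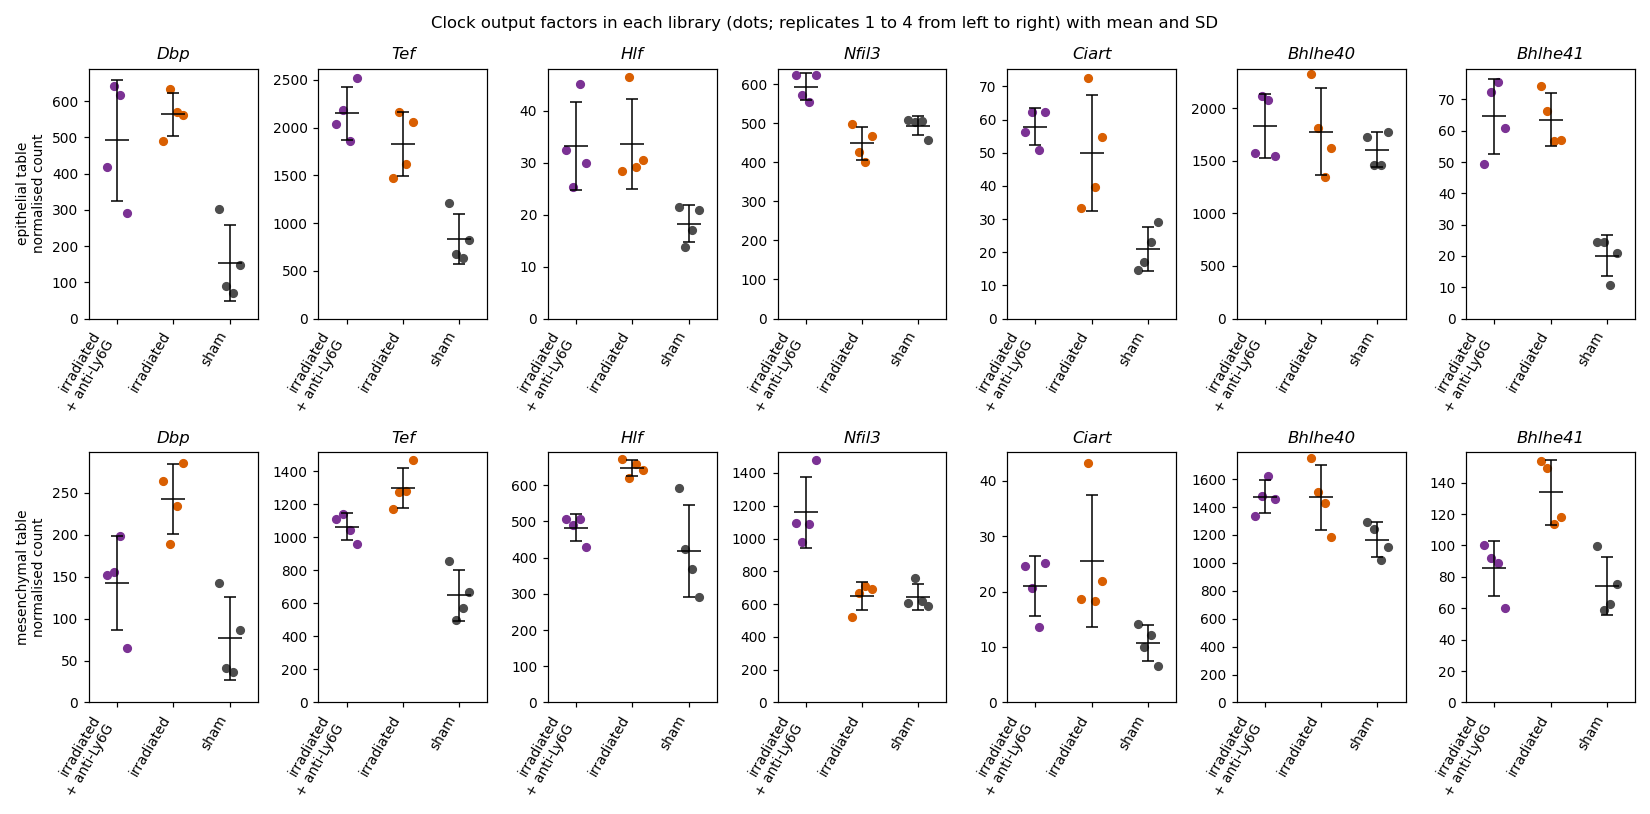
Normalised counts of the 7 genes in each library of the epithelial table (top row) and the mesenchymal table (bottom row); dots are libraries, bars the group mean and SD (n = 4). Dbp, Tef, Hlf, Ciart and Bhlhe41 lie higher in all 4 irradiated than in all 4 sham libraries of both tables, and Nfil3 lies highest in the irradiated anti-Ly6G libraries of both.

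In irradiated libraries Tef and Bhlhe41 were higher than in sham libraries of both fractions, Dbp and Ciart in the epithelial fraction and Hlf in the mesenchymal fraction, and with the antibody against Ly6G 1 further gene, Nfil3, was higher than in irradiated libraries. In irradiated against sham epithelial libraries 4 of the 7 genes rose (Dbp, Tef, Ciart and Bhlhe41) and 0 fell, where 2.26% of the 16626 genes tested were called higher and 0.878% lower (limma on log2(value + 1), called at a Benjamini-Hochberg adjusted p under 0.05). Among mesenchymal libraries 3 of 7 rose (Tef, Hlf and Bhlhe41) and 0 fell, where 2.64% of 16624 genes were called higher and 1.15% lower. In irradiated anti-Ly6G against irradiated libraries Nfil3 rose in both tables and 0 of 7 genes fell, where 0.204% of epithelial and 2.02% of mesenchymal genes were called higher and 0.271% and 0.674% lower. In irradiated anti-Ly6G against sham libraries 6 of 7 rose in the epithelial table, where 6.52% of genes were called higher and 4.76% lower, and 3 of 7 in the mesenchymal table, where 8.51% were called higher and 6.70% lower. The 4 irradiated libraries lay wholly above the 4 sham libraries for 5 of 7 genes in each table (Dbp, Tef, Hlf, Ciart and Bhlhe41), which holds for 4.94% of all epithelial and 6.26% of all mesenchymal genes tested. Irradiated anti-Ly6G libraries lay wholly above sham libraries for 5 of 7 epithelial genes, against 8.76% of all genes, and for 3 of 7 mesenchymal genes, against 10.3%. The 3 comparisons of a table share libraries and are not independent. None of the 7 reached an unadjusted p under 0.05 as lower in irradiated than in sham libraries of either table. Of all genes 5.95% of epithelial and 9.52% of mesenchymal ones did, so a count of 0 among 7 is near that share. For the 7 genes edgeR and DESeq2 likewise called 0 lower.

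**Figure D2:**
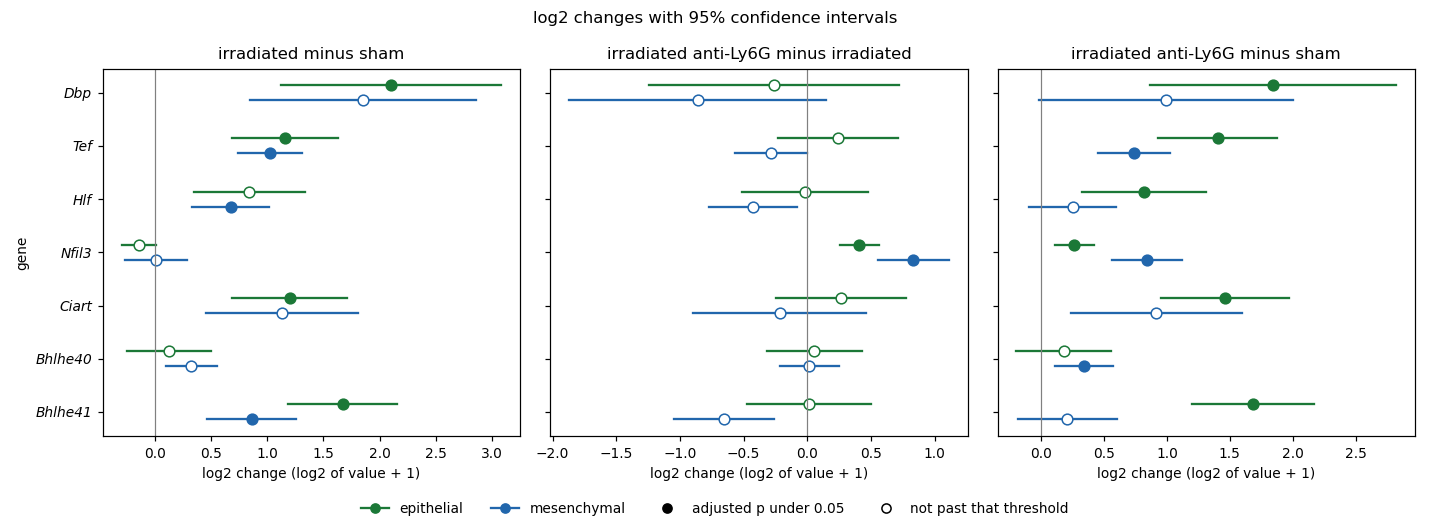
The log2 change of each gene with its 95% confidence interval in the 3 comparisons (panels), in the epithelial (green) and mesenchymal (blue) tables; filled dots passed the adjusted p of 0.05. The irradiated-minus-sham changes of Dbp, at 2.10 epithelial and 1.85 mesenchymal, are the farthest to the right, and Nfil3 is the gene with filled dots for irradiated anti-Ly6G minus irradiated.

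Dbp encodes the D-box binding activator of the PAR bZIP family that is known for its strong daily rhythm. Epithelial Dbp was at 417, 643, 616 and 291 normalised counts in irradiated anti-Ly6G libraries, at 490, 634, 570 and 562 in irradiated libraries and at 303, 90.2, 70.5 and 147 in sham libraries. All irradiated libraries lay above all sham libraries, while 1 irradiated anti-Ly6G library lay below the highest sham library. Dbp rose by 2.10 on the log2 scale in irradiated against sham libraries (SE 0.43, limma adjusted p = 0.0350), a change that ranked 54 among the 16626 genes, and it was 1.84 higher in irradiated anti-Ly6G than in sham libraries (SE 0.43, limma adjusted p = 0.0258). Both calls rested on several single libraries. The first ended without any one of sham replicates 2, 3 and 4, irradiated replicates 1 to 4 or irradiated anti-Ly6G replicate 1, with changes of 1.81 to 2.17 and limma adjusted p of 0.0532 to 0.122. The second ended without any one of sham replicates 2, 3 and 4 or irradiated anti-Ly6G replicates 1, 2 and 3, with changes of 1.55 to 1.90 and limma adjusted p of 0.0553 to 0.0702. The first also ended with no filter and with its groups alone in the fit (limma adjusted p = 0.0533 and 0.0784). The second also ended with its groups alone in the fit (limma adjusted p = 0.083).

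Mesenchymal Dbp was at 152, 156, 198 and 64.5 normalised counts in irradiated anti-Ly6G libraries, at 264, 189, 234 and 285 in irradiated libraries and at 143, 41.4, 36.3 and 86.5 in sham libraries. All irradiated libraries again lay above all sham libraries, and the irradiated anti-Ly6G libraries overlapped with both other groups. The change of 1.85 in irradiated against sham libraries (SE 0.45, 95% interval 0.84 to 2.86) missed the threshold, with a limma adjusted p of 0.0521. It passed without sham replicate 1, at 2.22 (adjusted p = 0.0198), and without irradiated anti-Ly6G replicate 4, at 1.85 (adjusted p = 0.0342), both by limma, and it passed with DESeq2 at 1.67 (adjusted p = 0.0101). In limma it also passed with a pseudocount of 8, with a mean of at least 50 normalised counts and with library weights (adjusted p = 0.0493, 0.0423 and 0.0438). Irradiated anti-Ly6G libraries differed from irradiated ones by -0.86 (SE 0.45, limma adjusted p = 0.358), and from sham libraries by 0.99 (SE 0.45, limma adjusted p = 0.178), neither past the threshold. Sphk2, a sphingosine kinase gene, overlaps Dbp on the opposite strand, and whether counting used strand is not given in the sources used here. Sphk2 averaged 379 ± 12.8, 379 ± 35.8 and 404 ± 24.9 normalised counts in irradiated anti-Ly6G, irradiated and sham epithelial libraries (SD, n = 4 each) and 211 ± 16.5, 227 ± 8.72 and 189 ± 11.2 in mesenchymal ones, and its groups differed less than those of Dbp.

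Tef, the thyrotroph embryonic factor gene, encodes another PAR bZIP activator and was the most abundant of the 3 per kilobase. Epithelial Tef was at 2038, 2182, 1863 and 2520 normalised counts in irradiated anti-Ly6G libraries, at 1474, 2158, 1622 and 2061 in irradiated libraries and at 1213, 678, 632 and 819 in sham libraries. Every library of both irradiated groups lay above every sham library. Tef rose by 1.16 on the log2 scale in irradiated libraries (SE 0.21, limma adjusted p = 0.0176) and by 1.40 in irradiated anti-Ly6G libraries (SE 0.21, limma adjusted p = 0.00281), both against sham. The call for irradiated against sham ended when sham replicate 3 or 4, or irradiated replicate 2 or 4, was left out, with limma adjusted p of 0.0514 to 0.0703. It also ended with irradiated and sham libraries alone in the fit (limma adjusted p = 0.0602). The interval of the epithelial difference between irradiated anti-Ly6G and irradiated libraries ran from -0.23 to 0.71 around 0.24.

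Mesenchymal Tef was at 1110, 1143, 1044 and 957 normalised counts in irradiated anti-Ly6G libraries, at 1173, 1272, 1279 and 1464 in irradiated libraries and at 855, 500, 574 and 665 in sham libraries. The 3 groups did not overlap, with irradiated libraries on top and sham libraries at the bottom. The rise in irradiated against sham libraries was 1.02 (SE 0.13, limma adjusted p = 0.000769), and leaving out any 1 library kept the adjusted p between 2.67e-05 and 0.00424. Irradiated anti-Ly6G libraries were 0.74 above sham libraries (SE 0.13, limma adjusted p = 0.00217). Their difference from irradiated libraries, -0.29 (SE 0.13), did not pass (limma adjusted p = 0.277), although the libraries did not overlap; 3.93% of all mesenchymal genes lay wholly lower in this comparison.

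Hlf, the hepatic leukemia factor gene, encodes the third PAR bZIP activator. Epithelial Hlf was low, at 32.5, 25.4, 45.1 and 29.9 normalised counts in irradiated anti-Ly6G libraries, at 28.4, 46.5, 29.1 and 30.6 in irradiated libraries and at 21.5, 13.8, 17.0 and 20.8 in sham libraries. All libraries of both irradiated groups lay above the sham libraries. The difference of 0.84 between irradiated and sham libraries did not pass (SE 0.23, limma adjusted p = 0.0617), whereas irradiated anti-Ly6G libraries were called 0.82 higher than sham libraries (SE 0.23, limma adjusted p = 0.0308). That call ended when sham replicate 2 or 3, or irradiated anti-Ly6G replicate 1, 3 or 4, was left out, with changes of 0.67 to 0.86 and limma adjusted p of 0.0519 to 0.0931.

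Mesenchymal Hlf was at 506, 491, 505 and 429 normalised counts in irradiated anti-Ly6G libraries, at 672, 619, 659 and 642 in irradiated libraries and at 591, 424, 368 and 291 in sham libraries. The irradiated libraries stood above all others, with a narrow spread, and the sham libraries spread 2.03-fold from lowest to highest. Hlf rose by 0.68 in irradiated against sham libraries (SE 0.16, limma adjusted p = 0.0369). Without sham replicate 3, any 1 irradiated replicate, or irradiated anti-Ly6G replicate 1 or 2 the call ended, with changes of 0.63 to 0.70 and limma adjusted p of 0.0519 to 0.119. With irradiated and sham libraries alone in the fit it also ended (limma adjusted p = 0.0855). In irradiated anti-Ly6G libraries Hlf differed from irradiated libraries by -0.43 (SE 0.16, limma adjusted p = 0.177), with groups that did not overlap. Without sham replicate 1, the highest sham library, this difference passed, at -0.43 (limma adjusted p = 0.0414), and so did a change of 0.43 in irradiated anti-Ly6G against sham libraries (limma adjusted p = 0.0195), which was 0.25 (SE 0.16, limma adjusted p = 0.323) with all libraries.

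Nfil3 encodes the bZIP repressor that competes with the PAR bZIP factors for the D-box, and it is also known as a regulator of immune cell development. Epithelial Nfil3 was at 624, 573, 554 and 622 normalised counts in irradiated anti-Ly6G libraries, at 498, 426, 401 and 468 in irradiated libraries and at 507, 504, 506 and 457 in sham libraries. The irradiated anti-Ly6G libraries lay above all libraries of the other groups, and 3.24% of all epithelial genes lay wholly higher than in irradiated libraries. Nfil3 rose by 0.41 on the log2 scale in irradiated anti-Ly6G against irradiated libraries (SE 0.07, limma adjusted p = 0.0146) and by 0.26 against sham libraries (SE 0.07, limma adjusted p = 0.0257). Irradiated and sham libraries overlapped and differed by -0.14 (SE 0.07, limma adjusted p = 0.401). The call against irradiated libraries ended without irradiated replicate 3, at 0.35 (limma adjusted p = 0.0588), and without irradiated anti-Ly6G replicate 1, at 0.38 (limma adjusted p = 0.0694). The call against sham libraries ended when sham replicate 3 or 4, or irradiated anti-Ly6G replicate 1 or 4, was left out, with changes of 0.23 to 0.28 and limma adjusted p of 0.0501 to 0.0844.

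Mesenchymal Nfil3 was at 1096, 981, 1089 and 1477 normalised counts in irradiated anti-Ly6G libraries, at 521, 667, 712 and 694 in irradiated libraries and at 610, 758, 620 and 587 in sham libraries. The irradiated anti-Ly6G libraries lay above all others without overlap, as did 6.09% of all mesenchymal genes against irradiated libraries, and irradiated and sham libraries overlapped. Nfil3 rose by 0.83 in irradiated anti-Ly6G against irradiated libraries (SE 0.13, limma adjusted p = 0.00328), or 1.78-fold on the log2(value + 1) scale, and by 0.84 against sham libraries (SE 0.13, limma adjusted p = 0.000743). Both calls held under all 22 alternatives, and without any 1 library the first lay between 0.71 and 0.91. The change in irradiated against sham libraries was 0.01, with an interval from -0.27 to 0.29. The leukocyte, endothelial and neutrophil marker sums given above overlapped between irradiated anti-Ly6G and irradiated libraries, whereas the mesenchymal marker sum of the epithelial table was wholly higher in irradiated anti-Ly6G libraries, with 1 of 7 markers called higher, the collagen gene Col3a1 at 0.61 (SE 0.08). Of the 6 neutrophil markers tested, 2 were called lower in irradiated anti-Ly6G than in irradiated mesenchymal libraries, and 0 of 6 was called in epithelial ones. The mesenchymal changes of the 6 ran from -2.37 to 0.657 on the log2 scale. The part of the leukocyte, endothelial, neutrophil and mesenchymal cells in the level of Nfil3 was not tested. With the leukocyte marker level in the fit, Nfil3 was called higher than in irradiated libraries of each table, and the epithelial call against sham libraries ended, at 0.24 (limma adjusted p = 0.348).

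Ciart (CHRONO) encodes a repressor that binds ARNTL, and it is the gene with the repeated E-box above. Epithelial Ciart was at 56.1, 62.3, 50.8 and 62.2 normalised counts in irradiated anti-Ly6G libraries, at 33.3, 72.5, 39.7 and 54.7 in irradiated libraries and at 14.6, 17.0, 23.2 and 29.1 in sham libraries. Both irradiated groups lay wholly above the sham group. Ciart rose by 1.20 on the log2 scale in irradiated against sham libraries (SE 0.24, limma adjusted p = 0.00945), which ended without irradiated replicate 2, at 1.00 (limma adjusted p = 0.0523). Irradiated anti-Ly6G libraries were 1.46 above sham libraries (SE 0.24, limma adjusted p = 0.000946), and this call held under the 21 alternatives that gave it a value.

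Mesenchymal Ciart was at 24.6, 20.7, 13.5 and 25.2 normalised counts in irradiated anti-Ly6G libraries, at 18.6, 43.2, 18.3 and 22.0 in irradiated libraries and at 14.2, 9.93, 12.1 and 6.65 in sham libraries. Irradiated libraries lay above all sham libraries, by a small margin at the bottom, and irradiated anti-Ly6G libraries overlapped with both. Neither the difference of 1.13 between irradiated and sham (SE 0.32, limma adjusted p = 0.0588) nor that of 0.92 between irradiated anti-Ly6G and sham (SE 0.32, limma adjusted p = 0.0652) passed. The difference between irradiated and sham passed with DESeq2, at 1.27 (adjusted p = 0.0286). That between irradiated anti-Ly6G and sham passed in limma without irradiated replicate 2, at 0.92 (adjusted p = 0.0431), and without irradiated anti-Ly6G replicate 3, at 1.10 (adjusted p = 0.0339). An antisense transcript, C920021L13Rik, overlaps Ciart and averaged 14.9, 17.8 and 10.6 normalised counts in irradiated anti-Ly6G, irradiated and sham mesenchymal libraries (SD 3.31, 5.48 and 2.93, n = 4 each), close to the level of Ciart. The mesenchymal values of Ciart are uncertain if counting ignored strand. Transcripts that overlap Tef, Bhlhe40 and Bhlhe41 reached at most 8.04, 3.05 and 11.4 normalised counts in any library.

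Bhlhe41 (DEC2) and Bhlhe40 (DEC1) encode related bHLH repressors of E-box genes, and in irradiated against sham libraries Bhlhe41 was the member called. Epithelial Bhlhe41 was at 49.4, 72.5, 75.6 and 61.0 normalised counts in irradiated anti-Ly6G libraries, at 74.4, 66.2, 56.6 and 57.1 in irradiated libraries and at 24.4, 24.4, 10.7 and 20.8 in sham libraries. The irradiated groups lay wholly above the sham group and overlapped with each other. Bhlhe41 rose by 1.67 in irradiated against sham libraries (SE 0.23, limma adjusted p = 0.000334) and by 1.68 in irradiated anti-Ly6G against sham libraries (SE 0.23, limma adjusted p = 0.000148). Leaving out any 1 library kept the first between 1.41 and 1.78, with limma adjusted p of 0.000419 to 0.00215. Irradiated anti-Ly6G and irradiated epithelial libraries differed by 0.01, with an interval from -0.47 to 0.50.

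Mesenchymal Bhlhe41 was at 100.4, 91.8, 88.9 and 60.5 normalised counts in irradiated anti-Ly6G libraries, at 154, 149, 114 and 118 in irradiated libraries and at 99.4, 58.8, 62.6 and 75.7 in sham libraries. The irradiated libraries lay above all others, and irradiated anti-Ly6G and sham libraries overlapped. The rise in irradiated against sham libraries was 0.86 (SE 0.19, limma adjusted p = 0.0207), and it ended when sham replicate 3, or irradiated replicate 1 or 2, was left out, with changes of 0.79 to 0.81 and limma adjusted p of 0.0517 to 0.0791. Irradiated anti-Ly6G libraries differed from irradiated libraries by -0.65 (SE 0.19, 95% interval -1.05 to -0.26) and from sham libraries by 0.21 (SE 0.19, limma adjusted p = 0.499). The first of these did not pass in limma (adjusted p = 0.0752) but did with DESeq2, at -0.65 (adjusted p = 0.0268). In irradiated anti-Ly6G against irradiated mesenchymal libraries 3 of the 7 genes (Tef, Hlf and Bhlhe41) were lower at an unadjusted p under 0.05, as were 7.89% of all genes, and limma and edgeR called 0 lower and DESeq2 called 1.

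Bhlhe40 was called in 1 comparison of 1 table. Among epithelial libraries it was at 1578, 2116, 2073 and 1548 normalised counts in irradiated anti-Ly6G libraries, at 2327, 1810, 1347 and 1625 in irradiated libraries and at 1723, 1463, 1459 and 1770 in sham libraries. The 3 groups overlapped, and the change in irradiated against sham libraries was 0.13 (SE 0.17, limma adjusted p = 0.819). Among mesenchymal libraries it was at 1337, 1477, 1625 and 1461 in irradiated anti-Ly6G libraries, at 1754, 1511, 1427 and 1186 in irradiated libraries and at 1290, 1245, 1017 and 1116 in sham libraries. The irradiated anti-Ly6G libraries lay just above the sham libraries, and the irradiated libraries overlapped with both groups. Bhlhe40 was called 0.34 higher in irradiated anti-Ly6G than in sham libraries (SE 0.11, limma adjusted p = 0.0447). The call ended when sham replicate 3 or 4, irradiated replicate 2 or 3 or any 1 irradiated anti-Ly6G replicate was left out, with changes of 0.28 to 0.39 and limma adjusted p of 0.0509 to 0.144. Irradiated libraries differed from sham by 0.32 (SE 0.11, limma adjusted p = 0.0998), which passed without irradiated replicate 4, at 0.42 (limma adjusted p = 0.0352).

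Markers of cells outside the gate moved with irradiation beside these rises. In irradiated against sham libraries 4 of 10 leukocyte markers rose in the epithelial table and 2 of 10 in the mesenchymal table, and 4 of the 6 neutrophil markers tested rose in each. Of the 7 endothelial markers 3 rose in the epithelial table and 0 in the mesenchymal table. All 7 mesenchymal changes of the endothelial markers were positive (0.29 to 1.41), 5 with an unadjusted limma p under 0.05. Of the 7 epithelial markers 1 rose in the mesenchymal table, where all 7 changes were positive (0.72 to 0.89), 6 with such a p. Of all mesenchymal genes 11.5% were higher at that p. Of the 7 mesenchymal markers 2 rose in irradiated and 4 in irradiated anti-Ly6G epithelial libraries, both against sham. When the leukocyte marker level entered the fit, 0 of the 7 genes was called in irradiated against sham libraries of either table, while 5 epithelial and 3 mesenchymal members were higher at an unadjusted p under 0.05, against 3.12% and 4.32% of all genes in that fit. Without the leukocyte level these counts were 5 and 6, against 8.40% and 11.5% of all genes. Of all tested genes that fit called 41 epithelial and 54 mesenchymal ones, against 522 and 631 without it. Epithelial changes in that fit were 1.84 for Dbp, 0.98 for Tef, 1.24 for Ciart and 1.25 for Bhlhe41. Mesenchymal changes were 1.04 for Tef (limma adjusted p = 0.0506), 0.39 for Hlf and 0.68 for Bhlhe41. All 10 leukocyte markers had positive changes in irradiated against sham libraries of both tables. The fit with their level therefore cannot tell their part from that of irradiation. The part of the endothelial, neutrophil, epithelial and mesenchymal markers in the levels of the 7 genes was not tested.

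The responses of the compartments to irradiation were not shown to differ for any member. In the difference of the within-table changes, 0 of 7 genes was called, against 0.629% of the 15092 genes tested in both tables. In limma 1 of the 7, Bhlhe41, had an unadjusted p under 0.05, a share near the 13.3% of all genes. Its rise was 0.81 larger in the epithelial than in the mesenchymal table (SE 0.31, 95% interval 0.17 to 1.45, limma adjusted p = 0.235). For Dbp the difference was 0.25 with an interval of -1.09 to 1.59, and for Tef it was 0.14 with an interval of -0.39 to 0.66, so unequal responses of up to those sizes could not be detected. For irradiated anti-Ly6G against irradiated libraries 0 of 7 genes was called, against 0.596% of all genes, and 3 had an unadjusted p under 0.05, against 11.3% of all genes. The change of Nfil3 was 0.43 smaller in the epithelial table (log2 difference -0.43, SE 0.15, limma adjusted p = 0.264), whereas those of Tef and Bhlhe41 were 0.53 and 0.67 higher in it (limma adjusted p = 0.439 and 0.420). edgeR and DESeq2 were not run for these differences.

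The core loop that drives the output genes changed in both directions. Of its 13 genes (Arntl, Clock, Npas2, Per, Cry, Nr1d and Ror genes) 12 were tested among epithelial libraries, where 3 rose and 3 fell in irradiated against sham. The repressor genes Per2 (1.12, SE 0.18) and Per3 (1.06, SE 0.16) rose together with Nr1d2 (0.81, SE 0.15), and the activator genes Arntl (-0.91, SE 0.14) and Npas2 (-1.17, SE 0.18) fell with the repressor gene Cry1 (-0.66, SE 0.16). Of the 11 tested among mesenchymal libraries, again 3 rose and 3 fell: Per2 (1.25, SE 0.13), Per3 (1.36, SE 0.20) and Nr1d2 (0.69, SE 0.15) were higher, and Arntl (-0.58, SE 0.11), Npas2 (-0.67, SE 0.17) and Clock (-0.44, SE 0.08) were lower. The median log2 change of the tested loop genes was 0.26 epithelial and 0.19 mesenchymal, that of the 7 output factors 1.16 and 0.86, and that of all genes tested -0.01 in both tables. In irradiated anti-Ly6G against irradiated libraries limma called 0 loop genes of either table. There were 4 epithelial ones at an unadjusted p under 0.05, all higher, and 2 mesenchymal ones, both lower. Of all genes 6.42% of epithelial ones were higher and 7.89% of mesenchymal ones lower at that p. DESeq2 called 1 epithelial and 0 mesenchymal loop genes, and edgeR called 0 of either. Against sham libraries, irradiated anti-Ly6G libraries had 6 loop genes higher and 2 lower in the epithelial table, and 3 higher and 2 lower in the mesenchymal table. By smallest p these were Per3 (1.04, SE 0.16), Per2 (1.16, SE 0.18), Arntl (-0.79, SE 0.14) and Cry2 (0.59, SE 0.11) in epithelial libraries. They were Per2 (1.27, SE 0.13), Cry2 (0.48, SE 0.11), Per3 (0.90, SE 0.20) and Clock (-0.31, SE 0.08) in mesenchymal ones.

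Arntl, the E-box activator itself, lay lower where Dbp lay higher. It was at 360, 250, 288 and 333 normalised counts in irradiated anti-Ly6G epithelial libraries, at 288, 225, 344 and 277 in irradiated ones and at 424, 589, 581 and 533 in sham ones. All sham libraries lay above all others. Mesenchymal Arntl was at 455, 430, 397 and 572 normalised counts in irradiated anti-Ly6G libraries, at 424, 422, 421 and 399 in irradiated libraries and at 515, 608, 739 and 649 in sham libraries, where irradiated libraries lay wholly below sham libraries. With the leukocyte marker level in the fit, 0 of the 12 epithelial loop genes were called in irradiated against sham libraries, and 1 of 11 mesenchymal ones was called higher.

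**Figure D3:**
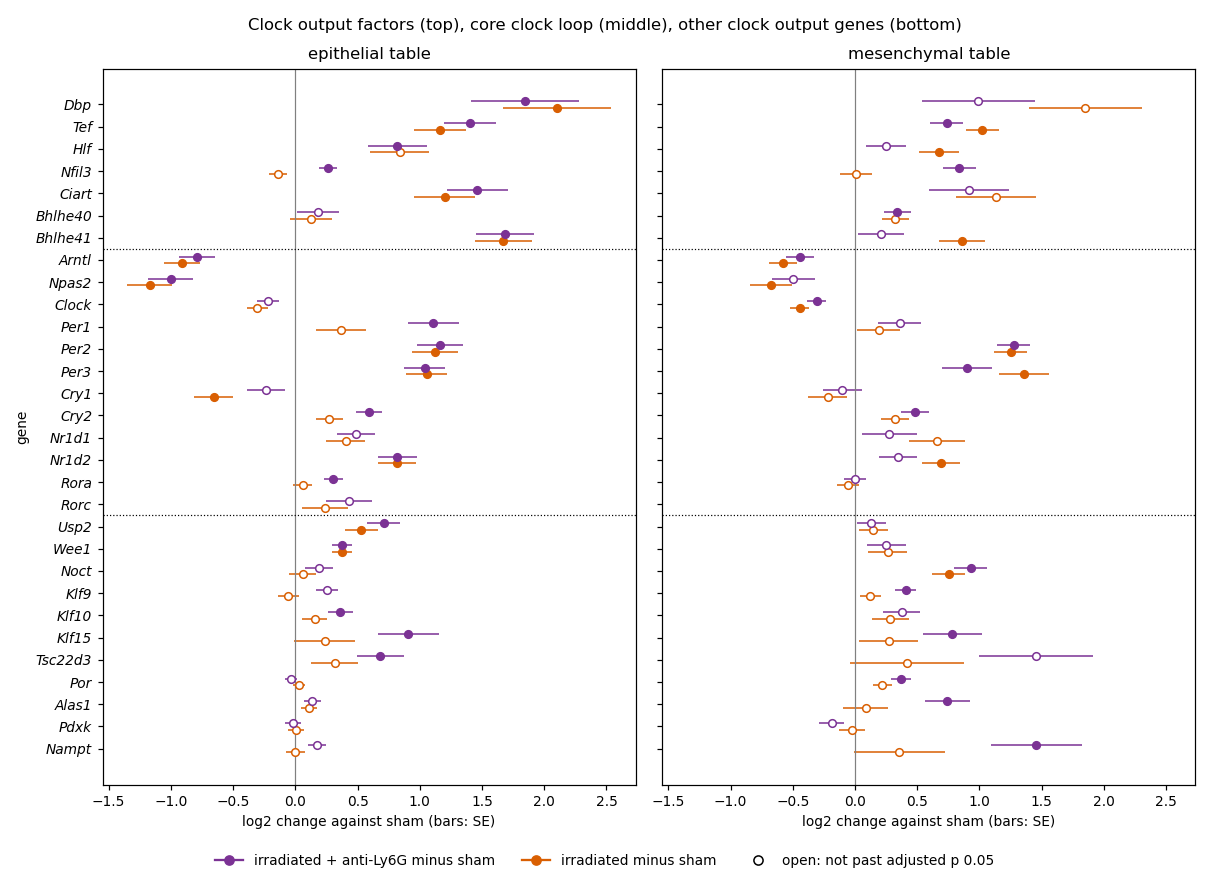
The log2 change against sham, with SE, of the 7 output factors (top), the core loop (middle) and other clock output genes (bottom), for irradiated anti-Ly6G (purple) and irradiated (orange) libraries; filled dots passed the adjusted p of 0.05, and genes with no dot were not tested. Per2 and Per3 lie right of 0 and Arntl and Npas2 left of it in both tables, while most of the bottom group of irradiated libraries lies near 0.

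Further genes known as clock outputs were counted as well. Of 11 such genes, 2 rose in irradiated against sham epithelial libraries, the deubiquitinase gene Usp2 (0.53, SE 0.13) and the cell cycle kinase gene Wee1 (0.38, SE 0.08). Among mesenchymal libraries 1 of 11 rose, the nocturnin gene Noct (0.75, SE 0.13). None fell in either table, whether by limma with or without adjustment, by edgeR or by DESeq2. At an unadjusted p under 0.05 in limma, 5.95% of all epithelial and 9.52% of all mesenchymal genes were lower in this comparison. In irradiated anti-Ly6G against sham libraries 5 of 11 rose in the epithelial table and 6 of 11 in the mesenchymal table. By smallest p the epithelial ones were Usp2 (0.71, SE 0.13), Wee1 (0.37, SE 0.08), and the Krüppel-like factor genes Klf10 (0.36, SE 0.10) and Klf15 (0.91, SE 0.24). The mesenchymal ones were Noct (0.93, SE 0.13), the oxidoreductase gene Por (0.37, SE 0.08), Klf9 (0.41, SE 0.08) and the heme synthesis gene Alas1 (0.74, SE 0.18). Against irradiated libraries limma called 0 of 11 of either table, with 3 epithelial and 4 mesenchymal genes higher at an unadjusted p under 0.05. Of all genes 6.42% of epithelial and 10.1% of mesenchymal ones were higher at that p. DESeq2 called 0 epithelial and 3 mesenchymal ones higher, and edgeR called 0 in both. Immediate early genes, which respond to cell dissociation, were also counted, since Bhlhe40 and Nfil3 can respond to acute stimuli. Of 8, 2 fell in irradiated against sham epithelial libraries, Fosb (-0.44, SE 0.07) and Fos (-0.33, SE 0.06), and 0 changed among mesenchymal libraries, where 1 was lower before adjustment and edgeR and DESeq2 called 0. Limma and edgeR called 0 of 8 in irradiated anti-Ly6G against irradiated libraries of either table, with 1 epithelial and 0 mesenchymal genes past an unadjusted p of 0.05 in limma, and DESeq2 called 1 epithelial gene lower. Of all genes 12.4% of epithelial and 17.9% of mesenchymal ones passed that p. Against sham libraries 3 fell in irradiated anti-Ly6G epithelial libraries, Fosb (-0.72, SE 0.07), Fos (-0.34, SE 0.06) and Egr1 (-0.30, SE 0.07), and limma and edgeR called 0 in mesenchymal ones, where 1 was lower before adjustment and DESeq2 called 1 lower.

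Within the sham groups Dbp spread 4.30-fold from its lowest to its highest library in the epithelial table and 3.93-fold in the mesenchymal table, more than any other member there. Epithelial sham replicate 1 held 303 normalised counts of Dbp, against 70.5 to 147 in the other sham libraries, and mesenchymal sham replicate 1 held 143, against 36.3 to 86.5. Irradiated anti-Ly6G replicate 4 was the lowest of its group in both tables. Over the 12 same-numbered libraries of the tables, the deviations of Dbp from its group means correlated with Pearson's r = 0.893 and Spearman's rho = 0.783 (exact permutation within groups, two-sided, p = 0.0101 and 0.0293), and r was 0.795 without the 2 libraries farthest from the median. Irradiated replicates 1, 2 and 3 deviated in opposite directions, at -0.196, 0.175 and 0.0202 in the epithelial and 0.136, -0.345 and -0.0383 in the mesenchymal table. So did irradiated anti-Ly6G replicate 1 (-0.166 and 0.2), while the other libraries, among them all sham ones, deviated in the same direction. The labels do not say whether same-numbered libraries came from the same mouse. Deviations of Dbp and Arntl ran against each other, with r = -0.711 and rho = -0.706 in the epithelial table (exact permutation p = 0.00637 and 0.0169) and r = -0.852 and rho = -0.706 in the mesenchymal table (exact permutation p = 0.0157 and 0.0574). Without the 2 farthest libraries these r were -0.623 and -0.675.

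Mesenchymal Dbp deviations ran with those of Tef (r = 0.799, rho = 0.776, exact permutation p = 0.0141 and 0.0294) and of Bhlhe41 (r = 0.789, rho = 0.601, exact permutation p = 0.0183 and 0.0836), with r of 0.831 and 0.654 without the 2 farthest libraries. Dbp and Nfil3 had r = -0.321 and rho = -0.455 in the epithelial table (exact permutation p = 0.226 and 0.112), and r = -0.590 and rho = -0.608 in the mesenchymal table (exact permutation p = 0.0702 and 0.0512). In all 21 relations were computed. Of these 5 had an unadjusted p under 0.05 for Pearson's r and 0 passed the Benjamini-Hochberg adjustment, whose smallest value was 0.0769 for r and 0.206 for rho, both from exact permutation within groups.

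**Figure D4:**
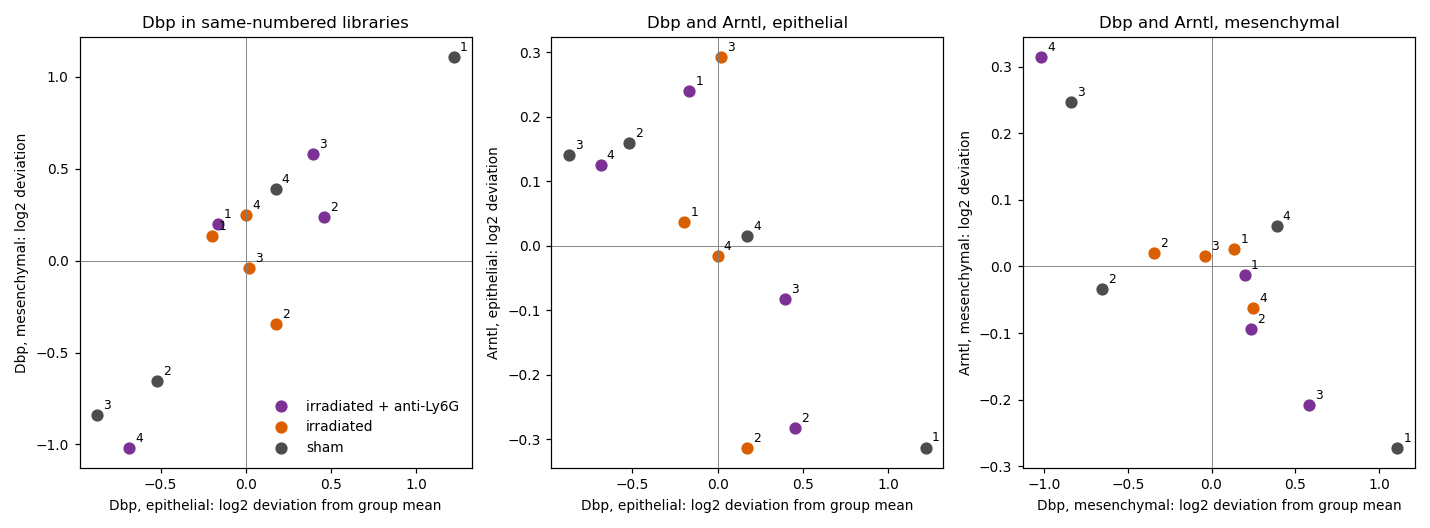
Deviations of log2(value + 1) from the group mean for 12 libraries: Dbp in the mesenchymal against the epithelial table (left), and Arntl against Dbp in the epithelial (middle) and mesenchymal (right) tables; labels are replicate numbers. Sham replicate 1 stands at the far right of each panel, and the points run upward on the left (r = 0.893) and downward in the middle (r = -0.711) and on the right (r = -0.852). The irradiated points by themselves do not run upward on the left.

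The genes whose pattern over the 12 libraries was most like that of a member were sought by Pearson's r of log2(value + 1). The search covered tested genes with a symbol and a mean of at least 50 normalised counts. Mitochondrial genes and symbols of the Gm, Rik, AC, AL and BC number kinds were left out, which gave 10561 epithelial and 10575 mesenchymal genes. The values of r describe likeness over libraries of 3 groups and carry no test. Closest to epithelial Dbp were the clock repressor gene Per3 (r = 0.963), the nuclear receptor gene Nr1d2 (0.955) and Tgfbi (0.951), which encodes an extracellular matrix protein. Closest to mesenchymal Dbp were Nr1d1 (0.930), Per3 (0.908) and Tef (0.903), the last being a member itself. For Nfil3 the nearest epithelial genes were Paics (0.889), a purine synthesis enzyme gene, the acetyltransferase gene Kat2b (0.886) and the collagen receptor gene Ddr1 (0.880). Among the 3 nearest mesenchymal ones were the cytokine gene Lif (0.968) and Acat3 (0.966). For Bhlhe40 they were Gabpb1 (0.945), Nup54 (0.893) and Nras (0.889) in the epithelial table and Cd109 (0.924), Cltb (0.917) and Tcn2 (0.913) in the mesenchymal table. No gene of the core loop was among the 3 nearest to Nfil3 or Bhlhe40 in either table.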

How the data were processed

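The deposited tables, 1 per sorted fraction, hold a signal for 48795 identifiers in 12 libraries each. It is the gene count after division by a size factor per library, and 100% of the positive values were whole multiples of 1 step within 0.001. Per the submitters' processing notes, cutadapt 1.5, STAR 2.2.2a, SAMtools 1.8, RSEM 1.3.0 and DESeq2 were used with build GRCm38; the annotation release and the use of strand are not given in the sources used here. The labels name CD31 in the cell type entries, and the protocol text names CD45 in its place. Symbols (48349 identifiers) and positions came from GENCODE M21, promoters from RefSeq.

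The tests used limma 3.58.1 in R 4.3.3 (trend, robust) on log2(value + 1), the 3 groups of a table in 1 fit. Genes needed a value of at least 10 in at least 4 of 12 libraries. Fold changes on this scale understate changes of low genes. Differences between the tables were tested in 1 fit of 24 libraries. edgeR 4.0.16 and DESeq2 1.42.0 were run on recovered reads, as alternatives. For mesenchymal sham replicate 3 and irradiated anti-Ly6G replicate 4 the step lay close to 1, at 1.01 and 1.008, and the scale of their reads was not checked in another way. The labels give 4 mice per group, and each library is taken as 1 mouse. All 7 members are named in every comparison. From the core loop, other output and immediate early lists the genes called are named, at most 4 per comparison by smallest p, and the nearest 3 patterns were sought for Dbp, Nfil3 and Bhlhe40. For mesenchymal Nfil3, 1 of these 3 is not reported here. Nr1d2, Cry1 and mesenchymal Npas2, Lcp1 and Col3a1, and Sphk2 and other overlapping genes, were named after their values were seen. The members, lists and tests were chosen with earlier results of these data known. The scripts were tested on simulated data. No column of values belonged to a sample outside these groups.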

Additional observations from a re-analysis of the deposited data

Results flagged for a closer look

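The members were looked through for libraries that stood far from the other 3 of their group (a gap to the nearest library, over the range of the group, above Dixon's critical value), in 42 groups of 4, of which chance marks about 1 in 20. Of these groups 3 held such a library. Hlf in epithelial irradiated replicate 2 was at 46.5 normalised counts, above the other 3 irradiated libraries. Nfil3 in epithelial sham replicate 4 was at 457 normalised counts, below the other 3 sham libraries. Ciart in mesenchymal irradiated replicate 2 was at 43.2 normalised counts, above the other 3.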

How the results depend on the processing

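The 7 genes were recounted under each alternative, and the cause of a changed count or sign was not tested except where named. For counts, here and over all genes, the values after "became" are the larger changes only. The count of 4 genes higher in irradiated than in sham epithelial libraries became 2 with a mean of at least 50 normalised counts, 2 with these groups alone and 0 with the leukocyte marker level in the fit, and ranged from 1 to 4 with a library left out. The filter at 50 takes the low genes out of the test. The Dbp call also ended with no filter and under the replicate block (limma adjusted p = 0.0533 and 0.0974). Hlf was called in addition with library weights (limma adjusted p = 0.0205). For irradiated anti-Ly6G against irradiated epithelial libraries the count of 1 became 0 with these groups alone and ranged from 0 to 1 with a library left out. Against sham the epithelial count of 6 became 3 with the filter at 50 and 2 with the leukocyte level, and ranged from 3 to 6. The mesenchymal count of 3 for irradiated against sham became 5 with DESeq2 and 0 with the leukocyte level, and ranged from 1 to 4. The count of 0 lower in irradiated anti-Ly6G than in irradiated mesenchymal libraries became 1 with DESeq2 and with the replicate block (Bhlhe41 in both, adjusted p = 0.0268 and 0.0396) and 1 with these groups alone (Hlf, adjusted p = 0.0127), and ranged from 0 to 1.

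Signs turned as follows. For irradiated anti-Ly6G against irradiated, epithelial Bhlhe41 was -0.001264 with library weights. For the epithelial minus mesenchymal difference in irradiated against sham, a pseudocount of 8 gave -0.01085 for Hlf, and the leukocyte level gave -0.0227 for Dbp and -0.06657 for Tef. For that difference in irradiated anti-Ly6G against irradiated, Bhlhe40 was -0.00077 with the leukocyte level. With single libraries left out, both signs were seen for epithelial Bhlhe40 in irradiated against sham (-0.0139 to 0.2488), epithelial Hlf (-0.1708 to 0.1443), Bhlhe40 (-0.06933 to 0.1934) and Bhlhe41 (-0.0677 to 0.1339) in irradiated anti-Ly6G against irradiated, mesenchymal Nfil3 in irradiated against sham (-0.04093 to 0.1091), and mesenchymal Ciart (-0.3372 to 0.06161) and Bhlhe40 (-0.08221 to 0.1059) in irradiated anti-Ly6G against irradiated. So did the differences between the tables for irradiated against sham of Dbp (-0.1175 to 0.6577), Tef (-0.005615 to 0.3319), Hlf (-0.02002 to 0.32) and Ciart (-0.1286 to 0.3444), and for irradiated anti-Ly6G against irradiated of Bhlhe40 (-0.0856 to 0.1771). None of these passed with all libraries.

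Of the 21 relations within groups, the r that took both signs were Dbp with Ciart in the epithelial table (-0.3024 to 0.2724), Dbp with Hlf in the mesenchymal table (-0.08502 to 0.9205), and between the tables Hlf (-0.388 to 0.2957), Nfil3 (-0.3188 to 0.3951) and Ciart (-0.2185 to 0.6741). From 0 to 3 relations passed the adjustment with a library left out: Dbp with Arntl in the mesenchymal table without mesenchymal sham replicate 2 (r = -0.9486, exact permutation, adjusted p = 0.0304) or 4 (r = -0.9095, exact permutation, adjusted p = 0.0304), and without the last of these also epithelial Dbp with Arntl and mesenchymal Dbp with Hlf (exact permutation, adjusted p = 0.0446 for both).

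Over all genes, the 522 calls for irradiated against sham epithelial libraries became 816 with DESeq2, 964 with library weights and 41 with the leukocyte level, and the 631 mesenchymal ones 1055 with DESeq2, 1048 under the replicate block and 54 with the leukocyte level. For irradiated anti-Ly6G against irradiated the 79 epithelial calls became 288 with DESeq2, 32 with these groups alone and 52 with the filter at 50, and the 448 mesenchymal ones 792 with DESeq2 and 291 with these groups alone. Against sham the 1876 epithelial and 2528 mesenchymal calls became 220 and 1219 with the leukocyte level. The 95 calls for the difference between tables in irradiated against sham became 199 with library weights, 211 under the replicate block, 184 with same-numbered libraries as pairs across the tables (chosen after seeing the data) and 2 with the leukocyte level. The 90 for irradiated anti-Ly6G against irradiated became 59 with no filter and 57 with the leukocyte level. With single libraries left out, irradiated against sham had 214 to 653 epithelial and 184 to 1073 mesenchymal calls, and irradiated anti-Ly6G against irradiated 36 to 199 and 182 to 806, and against sham 1187 to 1934 and 1571 to 2732.

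The groups share replicate numbers, which the main fits did not take as pairs. Same-numbered libraries deviated together (r over 0.1) in 1 of 12 epithelial and 3 of 12 mesenchymal pairs. Among pairs of different numbers it was 3 of 36 epithelial and 2 of 36 mesenchymal ones. The replicate block ended the epithelial calls of Dbp in irradiated against sham (limma adjusted p = 0.0974) and of Dbp and Hlf in irradiated anti-Ly6G against sham (limma adjusted p = 0.0736 and 0.0536), and changed no other call of the 7 genes than that of Bhlhe41 above. Of the same-numbered pairs across fractions, 7 of 12 had r over 0.1, and 9 of 12 epithelial libraries correlated best with the mesenchymal library of their own number, a hint from the data, not the design. Counting error weighs most on Ciart, Bhlhe41 and epithelial Hlf, the low genes.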
